A study of Mus musculus with 12 samples.

Results

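Nintedanib was compared with no drug within irradiated MC38 cells: 3 libraries from cells given nintedanib at 3 µM together with 8 Gy of X-rays (combination cells) were set against 3 libraries from cells given 8 Gy alone (radiation cells). These are 6 of the 12 libraries of the study, chosen by their treatment labels, and 12399 of the 54532 genes in the deposited table reached an FPKM of 1 in 3 or more of the 6 and were tested. The other 6 libraries, 3 from cells given nintedanib at 3 µM alone and 3 from untreated controls, entered the same fit and show the effect of the drug without radiation. The labels give 24 h for the treatments, no time for the controls and no statement of the order in which drug and X-rays were applied. They describe MC38 as a mouse colorectal cancer cell line and say that the experiment was repeated independently 3 times. All groups are cultures of this 1 line. It is not stated further what the repeats shared, so the p-values measure the spread between these libraries. In bulk RNA, fewer cells of a kind and less RNA per cell cannot be told apart.

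Nintedanib is a small-molecule inhibitor of receptor tyrosine kinases of the VEGF, FGF and PDGF receptor families. Such receptors signal through RAS and the kinase ERK, which drives transcription of ETS and AP-1 factors and of its own feedback inhibitors, and through phosphoinositide 3-kinase and mTORC1. The mTORC1 kinase favours ribosome production, amino acid supply through the transcription factor ATF4 and lipid synthesis through the SREBP factors, and it holds the lysosomal factors TFEB and TFE3 in the cytoplasm. X-rays break DNA and engage p53, checkpoint and repair genes.

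The 6 libraries held 16103528 to 18196615 fragments each, read from the FPKM values, and 12177 to 12373 genes at an FPKM of 1 or more in a library. FPKM is the number of fragments per kilobase of gene model, scaled to library depth, and a value of 1 in a gene of 1 kb stood for 16.4 to 18.7 fragments here. Such fragments are not counted molecules, so depth describes counting error only. Replicates differed from each other by more than sampling noise in every pair. Library 3 of the nintedanib group stood apart in its small RNAs (Gm23935 at 609.9 FPKM, against at least 12846 FPKM in the 6 irradiated libraries), and it enters the values below only through the shared estimate of spread and the effect in unirradiated cells. Epcam, an epithelial adhesion protein that would mark a colon epithelial line, was listed at 0 in all 12 libraries, whereas the intermediate filament protein Vim was at 499.9, 584.9 and 563 FPKM in combination cells and 528.6, 532.2 and 604 FPKM in radiation cells.

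Nintedanib changed the transcriptome of irradiated cells widely and in both directions. Most tested genes of cholesterol synthesis, lysosomes and glycolysis rose, while most of those of ERK output, ribosome production, amino acid supply and tRNA charging fell. Of the 12399 genes, 4490 (36.2%) passed an adjusted p of 0.05 in limma with Benjamini-Hochberg adjustment, 2238 of them higher (18%) and 2252 lower (18.2%) in combination cells. At least 2-fold changes were found for 339 genes (2.73%), 201 higher (1.62%) and 138 lower (1.11%). The 2 groups of 3 libraries did not overlap for 6065 genes (48.9%). Separate groups were therefore common, and they were a condition for the 14 largest rises and 14 largest falls named below. The median log2 fold change over all tested genes was -0.0059, and the middle 50% of genes lay between -0.22 and 0.22. Fold changes are combination over radiation on the log2(FPKM + 1) scale, which understates changes of genes at low FPKM.

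Among the largest rises, the surface antigen Psca (chromosome 15, 74714839 to 74717069, GRCm38) was at 20.2, 21.5 and 19.1 FPKM in combination cells, against 2.99, 1.87 and 2.94 FPKM in radiation cells (log2 fold change 2.58, SE 0.15, adjusted p = 7.66e-07). The mevalonate decarboxylase gene Mvd was at 80.8, 71.6 and 142.2 FPKM in combination cells, against 13.7, 14.9 and 16.2 FPKM in radiation cells (2.57, SE 0.23). The groups of both genes are separate by the naming rule, and combination library 3 was the highest for Mvd. Id2, an inhibitor of basic helix-loop-helix transcription factors, was at 25.1, 23.2 and 40.3 FPKM in combination cells, against 3.86, 4.48 and 5.02 FPKM in radiation cells (2.45, SE 0.20). The matricellular protein gene Wisp2 was at 9.60, 11.8 and 9.78 FPKM in combination cells, against 1.30, 1.56 and 1.25 FPKM in radiation cells (2.26, SE 0.089). The rest of the 14 largest rises by the naming rule were the sterol pathway genes Acat2 (2.23), Nsdhl (2.15), Idi1 (1.94) and Fdps (1.88), the lipid droplet coat gene Plin4 (2.09), the mitophagy receptor gene Bnip3 (2.02), the adhesion gene Mcam (1.91), the Id2 relative Id3 (1.91), the stathmin-like gene Stmn4 (1.90) and Uap1l1 (1.85).

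The largest fall was that of Car6, a secreted carbonic anhydrase (chromosome 4, 150187015 to 150201332, GRCm38), at 1.44, 2.5 and 1.49 FPKM in combination cells, against 35.9, 23.3 and 25.4 FPKM in radiation cells (log2 fold change -3.37, SE 0.18, adjusted p = 6.24e-07). The angiopoietin-like gene Angptl6 was at 1.27, 2.12 and 1.82 FPKM in combination cells, against 22.1, 15.6 and 17.6 FPKM in radiation cells (-2.82, SE 0.16). Both genes were near 1 to 3 FPKM in each combination library, which rested on 36 to 81 fragments, so their remaining levels are less precise than those of radiation cells. The corneodesmosome gene Cdsn was at 5.63, 6.24 and 4.60 FPKM in combination cells, against 49.9, 31.4 and 41.2 FPKM in radiation cells (-2.67, SE 0.16). The adaptor-like gene Sh2d6 (-2.47), the small nucleolar RNA host genes Snhg12 (-2.00) and Snhg5 (-1.93), the mitochondrial thioesterase Acot2 (-1.99), the sterol esterifying enzyme Soat2 (-1.95) and the cGMP-dependent kinase Prkg2 (-1.94) also fell. The ETS factors Etv5 and Etv4, the ATF4 target genes Trib3 and Slc7a11 and the AP-1 gene Fosl1 complete the 14 and are described with their pathways.

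**Figure D1:**
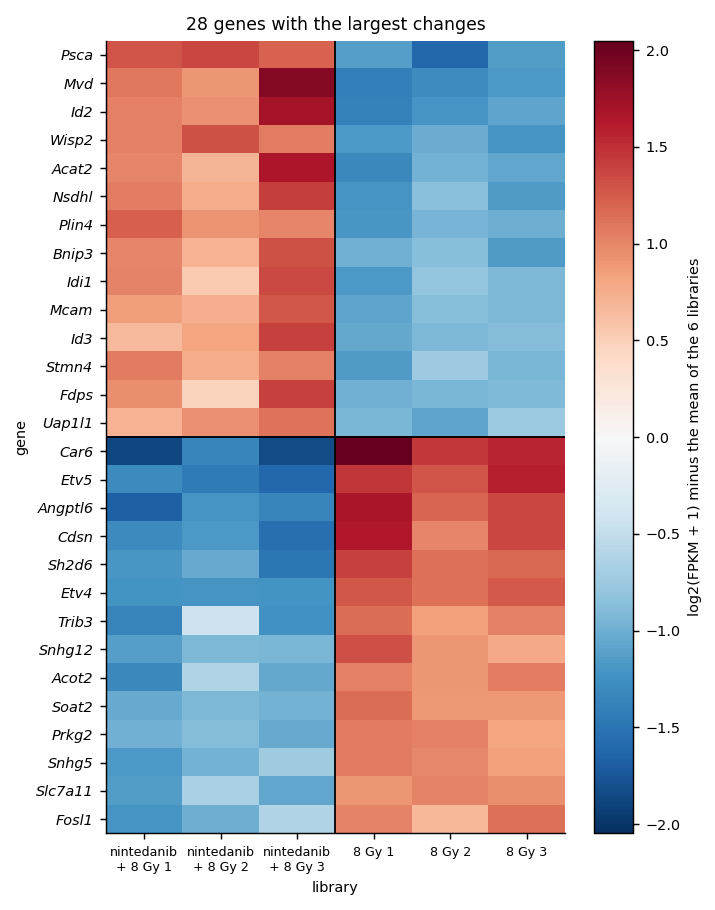
Heat map of log2(FPKM + 1) minus the mean of the 6 libraries (colour scale) for the 14 largest rises (upper block) and 14 largest falls (lower block); columns are the 3 combination libraries (nintedanib + 8 Gy) and the 3 radiation libraries (8 Gy). Separate groups were a condition for these genes. In every row the 3 combination libraries therefore lie on 1 side and the 3 radiation libraries on the other. Combination library 3 is the reddest of its row for Mvd, Id2, Acat2, Nsdhl, Bnip3, Idi1, Mcam, Id3, Fdps and Uap1l1. It is not the reddest for Psca, Wisp2, Plin4 and Stmn4.

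Of 16 genes for kinases that nintedanib is known to inhibit, 5 were high enough to be tested, and 3 of these rose. Pdgfrb, a platelet-derived growth factor receptor, was at 18.2, 17.7 and 16.4 FPKM in combination cells, against 11.2, 12.9 and 13.0 FPKM in radiation cells (log2 fold change 0.47, SE 0.076, adjusted p = 0.000677). Fgfr1, a fibroblast growth factor receptor, was at 35.2, 37.9 and 34.9 FPKM in combination cells, against 27.7, 26.4 and 29.5 FPKM in radiation cells (0.36, SE 0.065). Pdgfra rose by 0.34 (adjusted p = 0.0211), a call lost in 5 of 24 other settings (without combination library 1 or 2 or radiation library 1 among them), and the groups of all 3 receptor genes did not overlap. The kinase genes Src (-0.25) and Lyn (0.04) were not called. The VEGF receptor gene Kdr reached at most 0.0062 FPKM in combination cells and 0.0135 FPKM in radiation cells, and Flt1 stayed at 0.24 to 0.41 FPKM in combination cells and 0.20 to 0.27 FPKM in radiation cells, so neither could be compared.

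Of 8 tested ligand and co-receptor genes of these receptors, 2 rose and 1 fell, close to the shares of 18% and 18.2% over all tested genes. Vegfb was at 37.3, 46.3 and 44.3 FPKM in combination cells, against 20.03, 17.9 and 23.2 FPKM in radiation cells (log2 fold change 1.03, SE 0.15, adjusted p = 0.000358). Vegfa, the main angiogenic ligand, was at 31.5, 36.2 and 32.8 FPKM in combination cells, against 48.2, 44.2 and 45.5 FPKM in radiation cells (-0.45, SE 0.078, adjusted p = 0.00106). Vegfd rose as well (0.52), and the other 5 were not called. Among 11 other receptor tyrosine kinase genes tested, Met, the receptor of hepatocyte growth factor, rose by 0.51 and the collagen receptor gene Ddr1 by 0.50. The ephrin receptor gene Epha2 was at 39.6, 41.8 and 45.4 FPKM in combination cells, against 79.8, 70.4 and 85.2 FPKM in radiation cells, and it fell by 0.88 on the log2 scale without overlap. Ddr2 (-0.49) and Igf1r (-0.27) were called lower, the call of Igf1r being lost in 13 of 25 other settings. Without combination library 3 or radiation library 2, the list gave 1 lower call in place of 3.

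Of the tested genes transcribed downstream of ERK, a majority fell, some did not pass and a few rose. Of 10 tested ERK feedback inhibitors, 6 fell and 1 rose (median log2 fold change -0.44), and of 21 ETS factor and immediate early genes 11 fell and 2 rose (median -0.37). Etv5, an ETS factor (chromosome 16, 22381309 to 22439719, GRCm38), was at 1.98, 1.69 and 1.42 FPKM in combination cells, against 19.2, 16.9 and 21.2 FPKM in radiation cells (-2.90, SE 0.094, adjusted p = 3.83e-08). Its relative Etv4 was at 1.92, 1.93 and 1.91 FPKM in combination cells, against 15.4, 13.8 and 15.2 FPKM in radiation cells (-2.43, SE 0.093, adjusted p = 1.14e-07). For both ETS genes, groups without overlap were a condition of their naming. Fosl1, a subunit of the AP-1 factor, was at 12.9, 15.1 and 20.03 FPKM in combination cells, against 64.2, 50.7 and 69.5 FPKM in radiation cells (-1.89, SE 0.21). The ERK phosphatase gene Dusp6 was at 3.62, 4.04 and 2.73 FPKM in combination cells, against 10.7, 10.7 and 11.6 FPKM in radiation cells (-1.44, SE 0.11). Spry4, an inhibitor of receptor signalling to RAS, was at 0.58, 0.46 and 0.58 FPKM in combination cells, against 3.96, 3.35 and 4.03 FPKM in radiation cells (-1.63, SE 0.12). Dusp6 did not overlap between the groups, and for Fosl1 this was a condition of its naming. Spry4 reached 1 FPKM only in radiation cells, so the separation of its groups follows from the filter.

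Other feedback genes fell less: Spred2 (-0.74), Spred1 (-0.62), Spry2 (-0.54) and Dusp5 (-0.31), the call of Dusp5 being lost in 4 of 24 other settings, including those without combination library 3 or radiation library 1 or 2. The nuclear phosphatase gene Dusp4 moved the other way, at 85.9, 74.1 and 97.0 FPKM in combination cells, against 42.5, 45.8 and 57.6 FPKM in radiation cells (0.81, SE 0.13, adjusted p = 0.000556). AP-1 genes also moved both ways. Jund was at 99.4, 150.2 and 131.1 FPKM in combination cells, against 57.3, 47.6 and 56.7 FPKM in radiation cells (1.21, SE 0.19), and Fosl2 was at 25.1, 22.8 and 24.4 FPKM in combination cells, against 10.7, 10.8 and 11.3 FPKM in radiation cells (1.08, SE 0.074). The cyclin gene Ccnd1, which couples mitogen signals to the cell cycle, was at 62.0, 59.4 and 58.2 FPKM in combination cells, against 111.2, 123 and 134.3 FPKM in radiation cells (-1.02, SE 0.082, adjusted p = 6.12e-06). Ier2 (-0.92), Atf3 (-0.91) and Ets2 (-0.62) fell too.

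**Figure D2:**
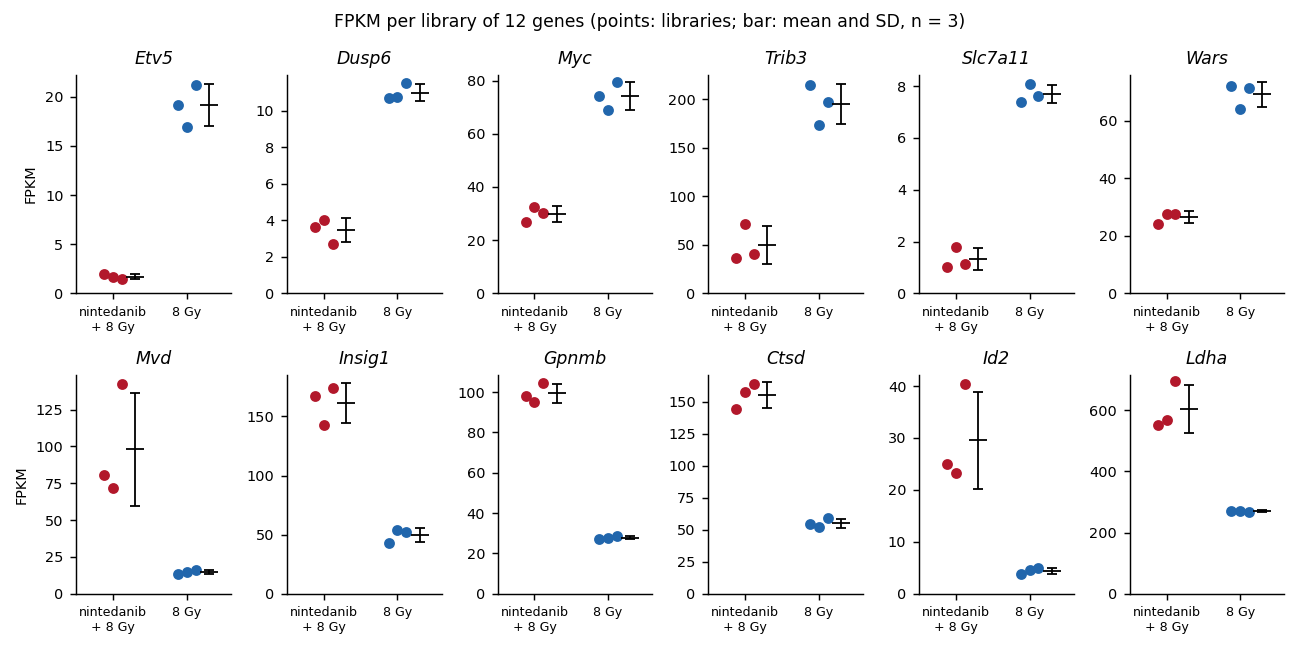
FPKM (vertical axes, from 0) of 12 genes in the 3 libraries of combination cells (nintedanib + 8 Gy, red) and the 3 of radiation cells (8 Gy, blue), with mean and SD (n = 3) beside the points. The upper 6 genes are lower and the lower 6 higher in combination cells, and no gene's groups overlap. For Etv5, Trib3, Slc7a11, Mvd and Id2 this was a condition of their naming. Myc lies at 26.7 to 32.4 FPKM in combination cells and 68.9 to 79.6 FPKM in radiation cells.

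Genes of MYC and of the nucleolus, where ribosomal RNA is made and assembled into subunits, fell in 33 of 39 tested members and rose in 2 (median log2 fold change -0.58). Myc itself, a factor that promotes growth and ribosome production (chromosome 15), was at 26.7, 32.4 and 30.2 FPKM in combination cells, against 74.0, 68.9 and 79.6 FPKM in radiation cells (-1.29, SE 0.085, adjusted p = 1.69e-06). The small nucleolar RNA core protein gene Nop56 was at 28.9, 32.9 and 38.7 FPKM in combination cells, against 83.03, 79.7 and 79.8 FPKM in radiation cells (-1.26, SE 0.13). The pseudouridine synthase gene Dkc1 was at 11.1, 12.1 and 13.2 FPKM in combination cells, against 30.4, 30.4 and 28.01 FPKM in radiation cells (-1.22, SE 0.11). The groups of all 3 genes were widely separated. Wdr43 (-1.004), Noc3l (-0.86), Mir17hg, the host of the miR-17 cluster (-0.82), Tsr1 (-0.77) and Rrp1b (-0.66) also fell. The 2 members that rose, Mxd4 (0.70) and Mxi1 (0.26), encode proteins that compete with MYC for its partner MAX, and the call of Mxi1 was lost in 5 of 25 other settings, those without combination library 1 or 2 or radiation library 1 or 3 among them.

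The cytosolic ribosomal proteins themselves moved little. Of 40 tested genes, 2 fell and 0 rose in limma at an adjusted p of 0.05, with a median log2 fold change of -0.05. The members that fell were Rpl3 (209.4, 237.1 and 242.1 FPKM in combination cells, against 300.3, 285 and 276.9 FPKM in radiation cells; -0.32, adjusted p = 0.0213) and Rpl5 (-0.32, adjusted p = 0.0322). Rpl4, Rpl7, Rpl10a and Rps18 had values of -0.18 to -0.35 that did not pass. Without combination library 1 or radiation library 1 or 2, 0 members were called lower, and over all other settings 0 to 7 were. In unirradiated cells 27 of the 40 genes fell with nintedanib (median -0.42), where 23% of all tested genes fell, and 39 of the 40 had a smaller effect in irradiated cells, but the limma test of the difference called 0 of them, with 14 at an unadjusted p under 0.05, where 13.4% of all tested genes were. The ribosomal protein genes are short, with a median model length of 1918 bases, and fold changes of short genes ran higher in the irradiated comparison, as given with gene length. After the length correction 7 members were called lower, Rpl4 (-0.28), Rpl7 (-0.24), Rpl10a (-0.38) and Rps18 (-0.42) among them, and the part of length in the smaller effect was not tested.

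Most tested genes of the ATF4 pathway fell. ATF4 is a transcription factor made when translation is restrained by stress or when mTORC1 is active, and its targets supply amino acids and charge tRNAs. Of 20 tested regulators and stress effectors, 15 fell and 1 rose (median log2 fold change -0.86), of 22 amino acid synthesis, transport and one-carbon genes 22 fell (median -1.02), and of 20 aminoacyl-tRNA synthetase genes 16 fell and 0 rose (median -0.72). Trib3, a pseudokinase that feeds back on ATF4 (chromosome 2, 152337422 to 152344032, GRCm38), was at 36.9, 71.8 and 40.4 FPKM in combination cells, against 215.1, 173.7 and 197.2 FPKM in radiation cells (-2.01, SE 0.20, adjusted p = 2.85e-05). Ddit3, a stress factor that promotes cell death, was at 14.9, 27.5 and 17.9 FPKM in combination cells, against 73.8, 62.6 and 67.0 FPKM in radiation cells (-1.75, SE 0.18). The second combination library was the highest of its group for both genes and still below every radiation library, as the naming rule requires for Trib3. Atf4 was at 151.1, 208.1 and 195.6 FPKM in combination cells, against 322.3, 275.8 and 284.6 FPKM in radiation cells (-0.68, SE 0.12, adjusted p = 0.00144). The cystathionine lyase gene Cth (-1.60), the mTORC1 inhibitor gene Sesn2 (-1.32), Stc2 (-1.24), Vldlr (-1.15) and the ATF4 partner gene Cebpg (-0.76) fell as well. The member that rose was Eif2ak3, the endoplasmic reticulum kinase upstream of ATF4 (0.26).

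Slc7a11, the cystine importer, was at 1.02, 1.81 and 1.15 FPKM in combination cells, against 7.38, 8.09 and 7.63 FPKM in radiation cells (-1.92, SE 0.13, adjusted p = 1.82e-06). The mitochondrial folate enzyme gene Aldh1l2 was at 8.49, 8.68 and 7.51 FPKM in combination cells, against 24.8, 23.6 and 23.7 FPKM in radiation cells (-1.44, SE 0.074). Asns, which makes asparagine, was at 46.9, 69.0 and 56.6 FPKM in combination cells, against 118.8, 109 and 109.2 FPKM in radiation cells (-0.97, SE 0.12). Aldh1l2 and Asns did not overlap, and for Slc7a11 separate groups were a condition of its naming. The neutral amino acid transporter gene Slc1a5 (-1.22), the cationic transporter gene Slc7a1 (-1.12), Bcat1 (-1.04), the proline enzyme genes Pycr1 (-1.01) and Aldh18a1 (-0.94), and the serine enzyme genes Psat1 (-0.70) and Phgdh (-0.57) fell too.

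Among the tRNA synthetases, the tryptophan enzyme gene Wars was at 24.0, 27.7 and 27.7 FPKM in combination cells, against 72.1, 64.2 and 71.3 FPKM in radiation cells (-1.35, SE 0.093, adjusted p = 2.36e-06). The leucine enzyme gene Lars was at 41.9, 48.8 and 43.3 FPKM in combination cells, against 111.3, 107.7 and 107.5 FPKM in radiation cells (-1.27, SE 0.072). Each synthetase gene named here had groups that did not overlap. Iars (-1.13), Eprs (-1.11), Tars (-1.02) and Nars (-0.99) lay close behind.

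Promoters of these genes are shown because a share of them holds the C/EBP-ATF composite site, the element that ATF4 and its C/EBP partners bind. The window was 300 bases of RefSeq sequence (GRCm38.p6), 250 before and 50 after each listed gene start, and 8791 of the tested genes matched by symbol. The letters TGATGNAA, searched on both strands, stood in 222 of the 8791 genes (2.53%). They stood in 6 of 18 matched ATF4 pathway regulators (33.3%), 6 of 19 amino acid genes (31.6%) and 5 of 12 tRNA synthetase genes (41.7%). A match describes the letters and not binding. The windows below run 5′ to 3′ on the strand of the gene, 40 bases each, with the match in capitals. Where the capitals end in CATCA the match is on the opposite strand.
Trib3, chr2:152344023-152344062, minus strand: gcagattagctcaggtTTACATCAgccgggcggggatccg
Atf3, chr1:191183420-191183459, minus strand: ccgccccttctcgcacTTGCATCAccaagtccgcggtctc
Asns, chr6:7693209-7693248, minus strand: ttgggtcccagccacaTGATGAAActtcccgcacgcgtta
Slc7a11, chr3:50443656-50443695, minus strand: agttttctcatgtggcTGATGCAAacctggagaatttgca
Pycr1, chr11:120643828-120643867, minus strand: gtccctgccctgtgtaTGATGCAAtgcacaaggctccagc
Iars, chr13:49682121-49682160, plus strand: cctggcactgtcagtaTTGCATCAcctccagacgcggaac
Tars, chr15:11399650-11399689, minus strand: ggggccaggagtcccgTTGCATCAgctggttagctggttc
The match began at base 15 after the start in Trib3 and at base 8 in Iars, and before the start in the other 5, at -110 in Atf3, -103 in Pycr1, -66 in Slc7a11, -23 in Asns and -15 in Tars. Slc7a11 held another match at -47.

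Cholesterol genes rose together. Of 30 tested genes of cholesterol synthesis and uptake, 27 rose and 0 fell (median log2 fold change 1.28). Insig1, which retains the SREBP complex in the endoplasmic reticulum and is itself a target of it, was at 167.7, 142.4 and 174.5 FPKM in combination cells, against 42.5, 54.3 and 52.1 FPKM in radiation cells (1.69, SE 0.10). The squalene epoxidase gene Sqle was at 82.4, 71.6 and 98.6 FPKM in combination cells, against 28.9, 34.6 and 33.2 FPKM in radiation cells (1.35, SE 0.11, adjusted p = 8.47e-06). The groups of both were separate, and combination library 3 was the highest each time. Cyp51 (1.82), Hmgcs1 (1.59) and Fdft1 (1.51) rose among the enzymes, and Srebf2, the factor that drives the pathway, rose by 0.62 (adjusted p = 0.00109).

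Fatty acid genes followed in part, with 16 of 26 tested members higher and 1 lower (median log2 fold change 0.48). Plin4 was at 26.0, 20.9 and 22 FPKM in combination cells, against 4.09, 5.001 and 4.76 FPKM in radiation cells (2.09, SE 0.10). The desaturase gene Scd2, an abundant transcript here, was at 733.7, 640.1 and 669.9 FPKM in combination cells, against 294.5, 343.6 and 357.6 FPKM in radiation cells (1.04, SE 0.10). Scd2 was higher in every combination library, which for Plin4 was a condition of its naming. The acetyl-CoA synthetase gene Acss2 (1.27), Fads2 (0.93), Acsl3 (0.84), Scd1 (0.82) and Fads1 (0.64) rose too. The acyl-CoA synthetase gene Acsbg1 fell by 1.26 on the log2 scale, to 3.41, 4.03 and 3.50 FPKM in combination cells, against 9.80, 9.78 and 10.7 FPKM in radiation cells.

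The sterol regulatory element, TCACNCCAC on either strand, stood in 118 of the 8791 matched promoters (1.34%), in 1 of 22 matched cholesterol genes and in 0 of 21 fatty acid genes. The cholesterol gene was Hmgcs1, a synthase early in the pathway, and its window is shown as the only such match, with the element in capitals.
Hmgcs1, chr13:119690198-119690237, plus strand: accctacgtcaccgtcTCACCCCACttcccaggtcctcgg

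Lysosomal genes rose almost throughout. Of 42 tested hydrolases and membrane proteins, 39 rose and 0 fell (median log2 fold change 0.72), and of 16 subunits of the vacuolar proton pump, which acidifies the lysosome, 15 rose and 0 fell (median 0.83). The glycoprotein gene Gpnmb, a known target of TFEB-family factors, was at 98.2, 95.2 and 104.7 FPKM in combination cells, against 27.1, 27.6 and 28.5 FPKM in radiation cells (1.80, SE 0.080, adjusted p = 2.65e-07). The sialidase gene Neu1 was at 13.2, 14.3 and 16.1 FPKM in combination cells, against 3.85, 3.77 and 3.88 FPKM in radiation cells (1.68, SE 0.074). The protease gene Ctsd (chromosome 7) was at 144.2, 157.7 and 164 FPKM in combination cells, against 54.5, 51.9 and 58.9 FPKM in radiation cells (1.48, SE 0.074). None of the 3 overlapped between the groups. The protective protein gene Ctsa (1.01), the progranulin gene Grn (0.98), Gaa (0.97), Ctsb (0.95) and Man2b1 (0.77) rose as well. Among pump subunits, Atp6v0d1 was at 89.8, 102.7 and 100.7 FPKM in combination cells, against 40.8, 35.0 and 38.8 FPKM in radiation cells (1.33, SE 0.082). Atp6ap2 (0.96), Atp6v1b2 (0.89), Atp6v1e1 (0.88), Atp6v1a (0.86) and Atp6ap1 (0.72) followed.

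Autophagy genes rose in 18 of 34 tested members and fell in 4 (median log2 fold change 0.28). Bnip3, a receptor for the removal of mitochondria, was at 44.2, 36.4 and 55.4 FPKM in combination cells, against 10.5, 11.4 and 9.17 FPKM in radiation cells (2.02, SE 0.18). The autophagosome proteins Map1lc3b (1.05) and Gabarap (1.03), the mTORC1 regulator gene Flcn (0.92), the autophagy receptor gene Optn (0.80) and Rragc (0.59) rose. Tfeb itself was at 1.78, 1.96 and 1.98 FPKM in combination cells, against 1.61, 1.69 and 2.14 FPKM in radiation cells, with overlapping groups (0.05, adjusted p = 0.70). The 4 members that fell were the autophagy receptor gene Sqstm1 (-0.40), Wipi2 (-0.28), Atg12 (-0.27) and Tfe3 (-0.22). These are small values, and the calls were lost in 18 of 25 other settings for Atg12, 8 for Tfe3 and 4 for Sqstm1. Without combination library 1 or 3, radiation library 1 or control library 1, 1 or 2 of the 4 were called.

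The CLEAR element, TCACGTGA on either strand, is the palindrome that TFEB-family factors bind and contains the general E-box CACGTG. It stood in 207 of the 8791 matched promoters (2.35%), in 5 of 32 matched lysosomal genes (15.6%), in 3 of 11 pump subunit genes (27.3%) and in 0 of 29 autophagy genes. The windows of 4 genes described above are shown, with the element in capitals.
Ctsd, chr7:142387903-142387942, minus strand: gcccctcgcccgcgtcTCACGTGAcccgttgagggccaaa
Ctsa, chr2:164833744-164833783, plus strand: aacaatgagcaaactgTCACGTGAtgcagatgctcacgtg
Atp6v0d1, chr8:105566045-105566084, minus strand: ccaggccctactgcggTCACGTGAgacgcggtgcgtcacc
Atp6v1a, chr16:44139368-44139407, minus strand: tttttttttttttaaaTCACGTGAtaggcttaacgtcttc
The element began at -99 in Ctsd, -13 in Ctsa, -4 in Atp6v0d1 and -132 in Atp6v1a, counted from the gene start, and Ctsa held another at base 5 after it.

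**Figure D3:**
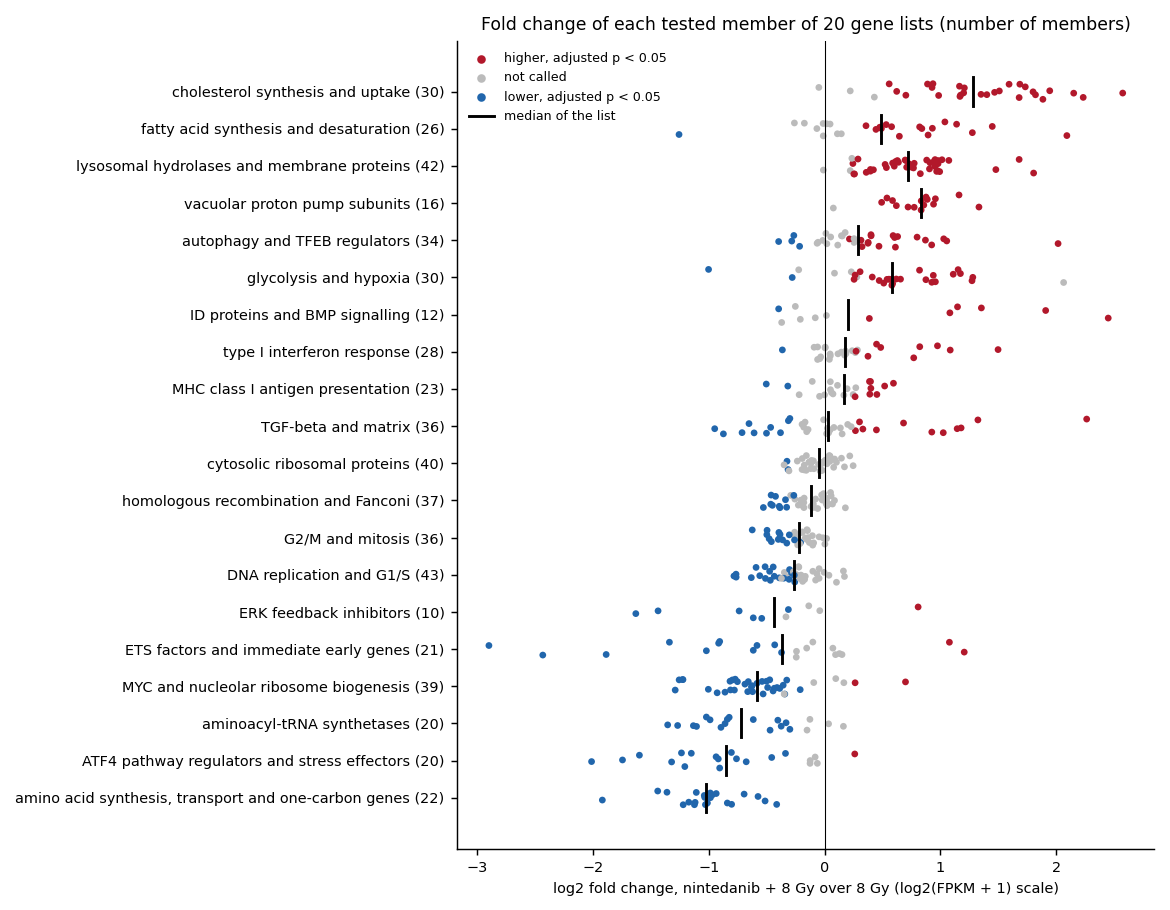
Log2 fold change of combination over radiation cells (horizontal axis) for each tested member of 20 gene lists (rows, number of members in brackets); red and blue points passed an adjusted p of 0.05 as higher and lower, grey points did not, and black bars are medians. The lists run from a median of 1.28 for cholesterol genes to -1.02 for amino acid genes, and the ribosomal proteins sit near 0.

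Glycolysis and hypoxia genes rose in 23 of 30 tested members and fell in 2 (median log2 fold change 0.58). Ldha, which makes lactate, was at 551.3, 568 and 694.9 FPKM in combination cells, against 272, 271.4 and 267 FPKM in radiation cells (1.15, SE 0.11, adjusted p = 1.53e-05). The triosephosphate isomerase gene Tpi1 was at 215.5, 225.2 and 266.5 FPKM in combination cells, against 100.3, 105.8 and 104.9 FPKM in radiation cells (1.17, SE 0.11). Both genes were separated by more than the spread within the groups. Pdk1 (0.94), Bhlhe40 (0.87), P4ha1 (0.82) and Pfkp (0.59) rose as well. The glucose transporter gene Slc2a1 (0.28, adjusted p = 0.0535) and the hexokinase gene Hk2 (-0.22, adjusted p = 0.128) were not called, although the call of Slc2a1 appeared in 6 of 25 other settings. The oxidoreductase gene Ero1l fell by 1.002, to 12.2, 11.9 and 12.8 FPKM in combination cells, against 27.3, 25.8 and 23.8 FPKM in radiation cells, and Anxa2 fell by 0.28, a call lost without combination library 1 or radiation library 1 or 2. Gapdh was at 2.54, 8.66 and 45.8 FPKM in combination cells, against 1.597, 1.89 and 1.93 FPKM in radiation cells, so the groups did not overlap, and its log2 fold change of 2.06 did not pass (adjusted p = 0.137), so it is not among the 14 largest rises. How its reads were shared with its many pseudogenes is uncertain.

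ID proteins and other genes of BMP signalling rose in 6 of 12 tested members and fell in 1 (median log2 fold change 0.20). This compares with 18% higher and 18.2% lower over all tested genes. Id3 was at 64.8, 71.2 and 107.9 FPKM in combination cells, against 19.1, 20.9 and 21.3 FPKM in radiation cells (1.91, SE 0.19). Id1 was at 113.6, 122.9 and 204.9 FPKM in combination cells, against 59.5, 65.2 and 66.2 FPKM in radiation cells (1.15, SE 0.23, adjusted p = 0.00289). The BMP inhibitor gene Smad6 was at 7.79, 9.39 and 16.3 FPKM in combination cells, against 3.26, 3.25 and 4.24 FPKM in radiation cells (1.35, SE 0.23). In all 3, as in Id2, combination library 3 stood highest and every combination library was above every radiation library. The naming rule requires this separation of Id2 and Id3. Atoh8 (1.08) and Bmp1 (0.39) rose too, and Hes1, better known as a Notch target, fell by 0.40, a call lost in 6 of 25 other settings, including those without combination library 1 or 2, radiation library 1 or 3 or control library 1.

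Fewer than 1 in 2 of the tested cell cycle genes fell and 0 rose, where 18.2% of all tested genes fell and 18% rose. Of 36 tested G2/M and mitosis genes, 14 fell and 0 rose (median log2 fold change -0.22), and of 43 DNA replication and G1/S genes 19 fell and 0 rose (median -0.26). Without combination library 1 or 2 or radiation library 1 or 2, the count of replication genes that fell moved by over 1.5 times, to between 10 and 12. Top2a, the mitotic topoisomerase gene, was at 109.5, 101.9 and 106 FPKM in combination cells, against 161, 165.6 and 164.3 FPKM in radiation cells (-0.63, SE 0.080, adjusted p = 0.000143). The cytokinesis kinesin gene Kif23 was at 14.1, 13.51 and 13.54 FPKM in combination cells, against 19.6, 20.02 and 19.8 FPKM in radiation cells (-0.50, SE 0.074). These groups did not overlap. Ndc80 (-0.46), Foxm1 (-0.40), Prc1 (-0.40) and Bub1b (-0.31) fell, while the mitotic cyclin genes Ccnb1 (-0.10) and Ccnb2 (-0.01) were not called. The letters TTTGAA of the cell cycle homology region stood in 22 of 30 matched G2/M promoters (73.3%), 6 of 36 replication promoters (16.7%) and 1240 of all 8791 (14.1%).

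The DNA methylation maintenance gene Uhrf1 (-0.78), E2f2 (-0.77), the polymerase gene Pola1 (-0.63), the licensing factor Cdt1 (-0.59) and the thymidine kinase gene Tk1 (-0.56) fell among replication genes, and Pcna was not called (0.04). Among 16 tested G1 regulators, 6 fell and 3 rose, where 18.2% of all tested genes fell and 18% rose. The share that rose was near that of all genes. Besides Ccnd1, the cyclin gene Ccnd2 fell (-0.65, SE 0.073). It was at 9.40, 9.06 and 8.84 FPKM in combination cells, against 14.1, 14.8 and 15.7 FPKM in radiation cells. The inhibitor gene Cdkn1b rose by 0.23 and Cdkn2c by 0.43, calls that were lost in 4 and 3 of 25 other settings. The count of higher G1 regulators was 0 without combination library 2 and 1 without combination library 3 or radiation library 2. E2f3 (-0.75), Cdk6 (-0.50) and E2f4 (-0.48) fell.

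Repair genes fell in part. Of 37 tested homologous recombination and Fanconi genes, 10 fell and 0 rose (median log2 fold change -0.12), a share of lower genes that can be read against 18.2% of all tested genes. Brca2 was at 4.21, 3.43 and 3.48 FPKM in combination cells, against 5.44, 6.16 and 5.74 FPKM in radiation cells (-0.53, SE 0.10, adjusted p = 0.0021). It fell without overlap between the groups, and Brca1 was not called (-0.08). Of 26 end joining and break signalling genes, 8 fell and 1 rose (median -0.14). The break-site factor Rif1 was at 4.95, 4.13 and 4.86 FPKM in combination cells, against 9.45, 10.02 and 9.36 FPKM in radiation cells (-0.91, SE 0.11). The Ku subunit gene Xrcc6 (-0.70), the histone gene H2afx (-0.64) and the checkpoint kinase gene Chek1 (-0.55) fell. The polymerase gene Polm was at 12.8, 13.7 and 15.6 FPKM in combination cells, against 6.10, 6.68 and 6.78 FPKM in radiation cells, and rose by 0.99. The kinase genes Atm (0.14) and Prkdc (-0.30) were not called.

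Of 29 tested p53 targets, 7 were higher and 6 lower (median log2 fold change -0.0030), shares near the 18% and 18.2% of all tested genes, and the count of higher members was 2 to 3 without combination library 1 or 3 or any of the radiation libraries. The cell cycle inhibitor gene Cdkn1a was at 23.5, 30.1 and 30.6 FPKM in combination cells, against 33.0, 31.5 and 34.2 FPKM in radiation cells (-0.23, adjusted p = 0.168), and the p53 antagonist gene Mdm2 had -0.02 (adjusted p = 0.854). Of the members that fell, Gadd45a was at 10.3, 18.2 and 13.2 FPKM in combination cells, against 52.8, 43.1 and 43.2 FPKM in radiation cells (-1.70, SE 0.20, adjusted p = 8.75e-05). Sesn2 (-1.32), Gdf15 (-0.81) and Plk2 (-0.74) fell as well, and Gadd45a, Sesn2 and Gdf15 are also known to respond to ATF4. The part of p53 or ATF4 in these falls was not tested. The death receptor gene Tnfrsf10b was at 6.35, 6.05 and 6.36 FPKM in combination cells, against 3.97, 4.37 and 4.12 FPKM in radiation cells (0.49, SE 0.079).

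Among 23 BCL2 family and apoptosis genes, 5 rose and 3 fell, again near the 18% and 18.2% of all tested genes. The anti-apoptotic gene Bcl2 was at 1.65, 1.46 and 1.22 FPKM in combination cells, against 2.53, 2.54 and 2.55 FPKM in radiation cells (-0.54, SE 0.091, adjusted p = 0.000882). The pore-forming genes Bax (0.46) and Bak1 (0.37) and the pro-apoptotic gene Bmf (0.45) rose, calls lost in 6 of 25, 7 of 25 and 7 of 24 other settings. The 5 higher calls became 0 to 2 without combination library 2 or 3 or any of the radiation libraries, and the 3 lower calls became 1 without radiation library 2. Mcl1 (0.02) and Bcl2l1 (-0.08) were not called.

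Interferon response genes rose in 9 of 28 tested members and fell in 1 (median log2 fold change 0.18). The shares over all tested genes were 18% higher and 18.2% lower. Ifit3 was at 3.95, 4.43 and 3.43 FPKM in combination cells, against 0.67, 0.67 and 0.90 FPKM in radiation cells (1.497, SE 0.19, adjusted p = 0.000124). The surface protein gene Bst2, which tethers viruses, was at 64.5, 75.9 and 82.9 FPKM in combination cells, against 36.7, 33.4 and 33.3 FPKM in radiation cells (1.08, SE 0.11). The groups of Bst2 were apart. Ifit3 reached 1 FPKM only in combination cells among the 6 libraries, so the separation of its groups follows from the filter. Ifi27l2a (0.97), Ifit2 (0.82), Stat2 (0.77), Isg20 (0.48), Parp9 (0.45) and Oas1a (0.37) rose. The factor gene Irf7 (0.27) was not called, and Mb21d1, which encodes the DNA sensor cGAS, fell by 0.36, a call lost without radiation library 2.

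MHC class I genes, which present antigen to T cells, rose in 8 of 23 tested members and fell in 2 (median log2 fold change 0.17). Over all tested genes, 18% rose and 18.2% fell. The light chain gene B2m was at 1271, 1308 and 1234 FPKM in combination cells, against 1025, 877.3 and 776.1 FPKM in radiation cells (0.52, SE 0.14, adjusted p = 0.0159), a call lost in 3 of 25 other settings, including those without combination library 2 or radiation library 3. The heavy chain gene H2-K1 was at 243.3, 292.4 and 249.1 FPKM in combination cells, against 204, 178.2 and 189.9 FPKM in radiation cells (0.45, SE 0.093). Both genes were higher in each combination library. H2-D1 overlapped between the groups (0.27, adjusted p = 0.0651), and the many near-identical H2 genes may share reads. The chaperone genes Calr (0.59) and Tapbp (0.39) rose, Tap1 was not called (-0.0010), and the proteasome activator gene Psme2 fell by 0.50. Without radiation library 3 the higher members were 5, and without combination library 2 or 3 or radiation library 1 or 2 the lower members were 0 or 1.

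Among 14 tested immune checkpoint and co-stimulatory ligands, 4 rose and 4 fell, where 18% of all tested genes rose and 18.2% fell. Cd274, the PD-L1 gene, was at 1.14, 0.96 and 0.86 FPKM in combination cells, against 2.87, 2.35 and 1.97 FPKM in radiation cells (-0.77, SE 0.11, adjusted p = 0.000287). Cd47, which signals to phagocytes, was at 27.5, 26.5 and 21.99 FPKM in combination cells, against 37.7, 32.9 and 36.5 FPKM in radiation cells (-0.48, SE 0.094). The galectin gene Lgals3 was at 430.7, 514.9 and 664.9 FPKM in combination cells, against 290, 249.7 and 252.9 FPKM in radiation cells (1.0, SE 0.19). Ligands of both directions thus had groups that did not overlap. Lgals9 (0.71), Tnfsf9 (0.66) and Pvr (0.31) rose and Icosl (-0.51) fell.

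Chemokine, cytokine and NF-kB genes fell in 7 of 21 tested members and rose in 0 (median log2 fold change -0.18). For comparison, 18.2% of all tested genes fell and 18% rose. At an unadjusted p under 0.05, 3 members were higher. Up to 2 were called higher without combination library 1, radiation library 2 or control library 1. Csf1, the macrophage growth factor, was at 36.5, 37.4 and 37.98 FPKM in combination cells, against 61.5, 65.2 and 65.3 FPKM in radiation cells (-0.76, SE 0.073, adjusted p = 1.91e-05). The chemokine gene Ccl9 was at 12.2, 16.2 and 8.41 FPKM in combination cells, against 22.9, 22.2 and 20.9 FPKM in radiation cells (-0.83, SE 0.18). Neither overlapped. Tnfaip2 (-0.79), Nfkb2 (-0.51), Nfkbie (-0.51) and Relb (-0.42) fell, while Ccl2 (0.33), Cxcl10 (-0.05) and Cxcl1 (-0.22) were not called.

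Matrix and TGF-beta genes moved both ways, with 11 of 36 tested members higher and 10 lower (median log2 fold change 0.03). Across all tested genes 18% were higher and 18.2% lower. The collagenase gene Mmp14 was at 58.4, 59.0 and 57.0 FPKM in combination cells, against 23.4, 24.6 and 27.7 FPKM in radiation cells (1.18, SE 0.067, adjusted p = 8.15e-07). Its substrate partner Mmp2 was at 446.5, 447.1 and 420 FPKM in combination cells, against 219.8, 221.9 and 249.4 FPKM in radiation cells (0.92, SE 0.081). The plasminogen activator genes Plat (1.32) and Plau (1.14) and Tgfb2 (1.02) rose with them. The metalloproteinase inhibitor gene Timp3 was at 77.0, 62.3 and 68.0 FPKM in combination cells, against 126.6, 134.8 and 140.4 FPKM in radiation cells (-0.95, SE 0.090). The secreted phosphoprotein gene Spp1 was at 94.8, 100.5 and 95.2 FPKM in combination cells, against 207.5, 174.1 and 156.6 FPKM in radiation cells (-0.87, SE 0.12). All 4 genes given by library had separate groups. Smad3 (-0.71), Skil (-0.65), Wisp1 (-0.61) and Bgn (-0.50) fell. Tgfb1 (0.02) and Col1a1 (-0.18) were not called.

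Of 21 YAP and TAZ target genes, 5 rose and 3 fell, near the shares over all tested genes (18% and 18.2%). The clotting initiator gene F3 was among those that rose (1.14). Without combination library 3 or radiation library 1 or 2 the YAP and TAZ targets called higher were 3. Contractile genes rose in 8 of 15 tested members and fell in 1 (median log2 fold change 0.32). The smooth muscle actin gene Acta2 was at 16.7, 15.9 and 20.1 FPKM in combination cells, against 8.31, 9.52 and 8.76 FPKM in radiation cells (0.91, SE 0.14, adjusted p = 0.000442). Cnn2 (0.85), Actg1 (0.62) and Filip1l (0.46) rose and the filamin gene Flna fell by 0.39.

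Stress and metabolic lists were mixed. NRF2 and glutathione genes rose in 13 of 31 tested members and fell in 3, with Ftl1, a ferritin subunit, at 846.7, 936.1 and 1303 FPKM in combination cells, against 504.2, 412.4 and 469.3 FPKM in radiation cells (log2 fold change 1.13, SE 0.17, adjusted p = 0.000452). Without combination library 3 the counts were 8 higher and 5 lower. Nfe2l2 (-0.09) and Hmox1 (0.30) were not called. Endoplasmic reticulum chaperone genes rose in 7 of 25 members and fell in 4, where 18% of all tested genes rose and 18.2% fell. The chaperone gene Hspa5 fell by 0.59 and the stress sensor genes Ern1 and Atf6 by 0.85 and 0.71. Hspa5 was at 214.4, 214.4 and 247.8 FPKM in combination cells, against 375.4, 321.1 and 323.6 FPKM in radiation cells. The chaperone genes called higher were 2 without combination library 3 and 4 without radiation library 2. Heat shock genes rose in 8 of 16 and fell in 4. The small heat shock gene Cryab (1.43) and Hspa1b (1.45), whose reads may be shared with a near-identical copy, rose, and the mitochondrial chaperone genes Hspa9 (-0.83), Hspd1 (-0.67) and Trap1 (-0.32) fell.

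Of 18 FoxO and insulin feedback genes, 5 rose and 3 fell, not far from the shares over all tested genes. Txnip, an inhibitor of thioredoxin that responds to glucose, was at 12.6, 15.99 and 5.61 FPKM in combination cells, against 39.1, 28.3 and 32.2 FPKM in radiation cells (-1.56, SE 0.32, adjusted p = 0.00296). Without combination library 2 or radiation library 1 or 3 the FoxO list had 1 lower call. Clock genes rose in 5 of 15 and fell in 6, with the core clock gene Arntl at -1.08 and its repressors Bhlhe40 and Bhlhe41 at 0.87 and 0.77. Of 15 senescence and secretory genes, 7 fell and 2 rose. The chromatin protein gene Hmga1 was at 94.8, 107.4 and 134 FPKM in combination cells, against 313.6, 242 and 290 FPKM in radiation cells (-1.33, SE 0.23), and Hmga2 (-1.15) and Igfbp4 (-1.29) fell too. No mitochondrially encoded gene among 12 tested was called in limma, 0 at an unadjusted p under 0.05, and 1 was called without nintedanib library 3. Of 31 nuclear respiratory chain genes, 7 rose and 0 fell (median 0.17), where 18% of all tested genes rose and 18.2% fell. The rising share is near that of all genes, and 11 were called higher without combination library 1. Ndufa1 (0.90), Cox6a1 (0.64) and Cox7a2 (0.61) were among those that rose.

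The leukocyte, endothelial and epithelial marker lists summed low, while the mesenchymal list was high. Of 10 leukocyte markers 1 was tested: Cd68, which also encodes a lysosomal membrane protein, was at 17.3, 16.2 and 19.5 FPKM in combination cells, against 4.28, 5.41 and 4.60 FPKM in radiation cells (1.70, SE 0.098). The summed FPKM of the leukocyte list was 17.6 to 20.3 in combination cells and 4.98 to 5.93 in radiation cells. Ptprc, which all leukocytes express, had no value above 0.0154 FPKM in combination cells or 0.0292 FPKM in radiation cells, and the T cell gene Cd3e was listed at 0. None of 10 endothelial markers was high enough to be tested (summed 2.51 to 3.81 FPKM in combination cells and 1.83 to 2.08 FPKM in radiation cells). Of 10 epithelial markers 3 were tested, and Krt19 (1.11) and Cdh1 (0.47) rose, the list summing to 12.8 to 15.1 FPKM in combination cells and 8.15 to 8.48 FPKM in radiation cells. The mesenchymal list, led by Sparc, Vim and S100a4, summed to 1631 to 1841 FPKM in combination and 1370 to 1502 FPKM in radiation cells. Of its 9 tested genes 2 were higher and 1 lower, where 18% of all tested genes were higher and 18.2% lower. Without combination library 2 or radiation library 1 or 3, 1 was higher.

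The drug effect in irradiated cells was then set beside the drug effect in unirradiated cells, with which it shares no library. Over the same 12399 genes, nintedanib against control called 5417 genes (43.7%), 2566 higher (20.7%) and 2851 lower (23%). Of the genes called, 3443 were shared, which is 76.7% of those called in irradiated and 63.6% of those called in unirradiated cells, and 3436 of the shared genes had the same sign. Across all tested genes the 2 effects had a Pearson r of 0.77, a description over genes that are not independent and that share library preparation. The median size of the log2 effect was 0.22 in irradiated and 0.26 in unirradiated cells. The lists that led the changes had medians of 1.28 in irradiated and 1.30 in unirradiated cells for cholesterol genes, 0.72 and 0.68 for lysosomal genes, -1.02 and -1.28 for amino acid genes, -0.86 and -1.35 for ATF4 pathway regulators, and -0.58 and -1.02 for MYC and nucleolar genes. Among the falling lists, the effect was smaller in irradiated cells for 38 of 39 MYC and nucleolar genes and 20 of 20 ATF4 pathway regulators. The same held for 20 of 22 amino acid genes and 19 of 20 tRNA synthetase genes. In the cell cycle lists it held for fewer, 13 of 36 G2/M and mitosis genes and 17 of 43 DNA replication and G1/S genes. The medians of these 2 lists were -0.22 and -0.26 in irradiated and -0.085 and -0.18 in unirradiated cells. The effect was smaller for 20 of 30 cholesterol genes, 15 of 42 lysosomal genes and 174 of the 339 genes changed at least 2-fold. The share of smaller effects over all tested genes was not computed.

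**Figure D4:**
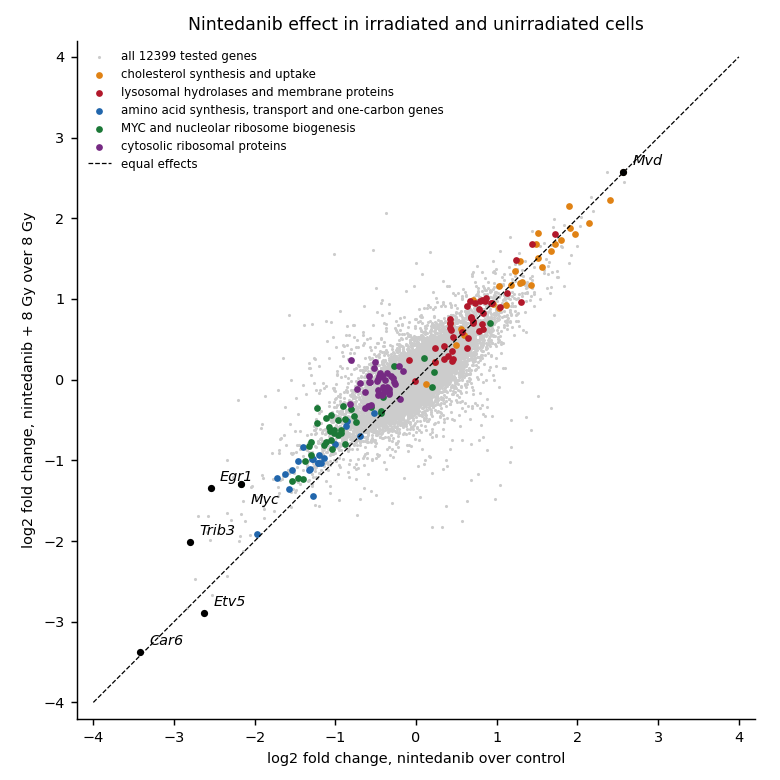
Log2 fold change of nintedanib + 8 Gy over 8 Gy (vertical axis) against that of nintedanib over control (horizontal axis) for the 12399 tested genes (grey), with 5 lists in colour and 6 genes named; the dashed line marks equal effects. Cholesterol and lysosomal genes lie along the line. Egr1, Myc, Trib3 and most amino acid, nucleolar and ribosomal protein genes lie above it, with smaller falls in irradiated cells.

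The test of the difference between the 2 effects called 1 of 12399 genes (0.00807%), while 1662 (13.4%) had an unadjusted p under 0.05. The gene was Egr1, an immediate early transcription factor induced by ERK (ENSMUSG00000038418, chromosome 18, 34859823 to 34864984). It was at 0.74, 0.79 and 0.74 FPKM in combination cells, against 2.95, 3.51 and 3.96 FPKM in radiation cells (log2 fold change -1.34, SE 0.096). Without radiation it was at 0.60, 0.78 and 0.65 FPKM with nintedanib, against 9.24, 8.00 and 9.13 FPKM in controls (-2.55, SE 0.096). The difference was 1.21 (SE 0.135, adjusted p = 0.0242). The 6 libraries with the drug lay between 0.60 and 0.79 FPKM with or without X-rays, while the radiation libraries lay below the controls without overlap. The call was lost in 13 of 23 other settings, including those that left out any single library other than combination library 1 or radiation library 3. Over the 23 settings the difference ranged from 1.10 to 1.48.

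At an adjusted p under 0.1 there were 11 genes, which do not pass the threshold used here. They include Myc (difference 0.88, adjusted p = 0.0715), Atf3 (0.88, adjusted p = 0.0751) and the choline kinase gene Chka (0.68, adjusted p = 0.0751), each with a smaller fall in irradiated than in unirradiated cells. Of the 7 genes called in both conditions with opposite signs, those with established symbols were Hist1h2bc (0.40 in irradiated and -0.74 in unirradiated cells), Klk8 (0.42 and -0.39), Apobec3 (-0.24 and 0.31) and Slc35d2 (-0.32 and 0.24), and the difference passed for none of them (adjusted p = 0.10 to 0.202).

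Fold changes of protein-coding genes moved with gene model length in the irradiated comparison. Among 10 length classes of near equal size, the shortest, 51 to 1730 bases, had a median log2 fold change of 0.17, with 23.8% of them higher and 5.92% lower. The longest class, 9801 to 41324 bases, had a median of -0.11, with 9.21% higher and 27.8% lower. In unirradiated cells the medians of the 10 length classes lay between -0.05 and 0.01. The tested nuclear respiratory chain genes had a median length of 2178 bases and the homologous recombination genes one of 5659 bases, so their small medians run the same way as length. After the trend was subtracted from each library, a step chosen after the data were seen, 4679 genes were called, 4117 of them among the 4490, and the part of length in any single result was not tested. Among the lists with larger medians, these lay in between: 3681 bases for lysosomal, 4794 for cholesterol and 4214 for amino acid genes. The ATF4 pathway regulators, with a median log2 fold change of -0.86, were shorter, at 2346 bases, near the respiratory chain genes.

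**Figure D5:**
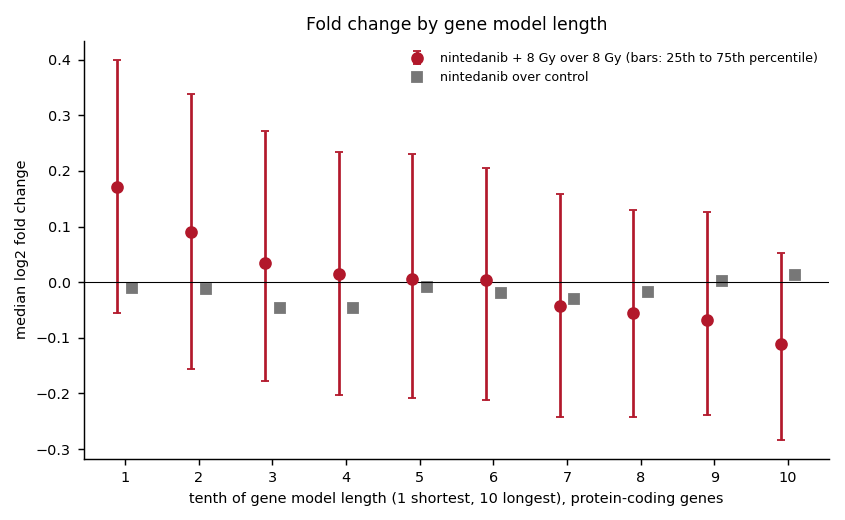
Median log2 fold change (vertical axis) by class of gene model length (horizontal axis, 1 shortest and 10 longest) for protein-coding genes in nintedanib + 8 Gy over 8 Gy (red circles, bars from the 25th to the 75th percentile) and in nintedanib over control (grey squares). The red medians run from 0.17 in the shortest to -0.11 in the longest class, and the grey medians stay between -0.05 and 0.01.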

How the data were processed

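MC38 libraries of 4 treatment groups, 3 each, were grouped by their treatment labels. Per the labels' protocol, total RNA was column-purified and libraries were made with a SMARTER mRNA-seq kit; the submitters' processing notes name GRCm38 and mm10. Not given in the sources used here are the aligner, counter, annotation release and strandedness. The authors deposited FPKM per gene, already scaled to gene length and depth. FPKM times length gave whole fragments for 100% of values (tolerance 0.01 of a step), which set the depth per library. No column of another sample was present.

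Genes with FPKM of at least 1 in at least 3 of the 6 irradiated libraries were tested in limma 3.58.1 (R 4.3.3) on log2(FPKM + 1), with empirical Bayes and an intensity trend, 1 mean per group over all 12 libraries (8 residual degrees of freedom), two-sided, with Benjamini-Hochberg adjustment over 12399 genes and a threshold of 0.05. A second contrast subtracted the effect of nintedanib over control. The procedure was tested on simulated data. Members and gene lists were chosen with earlier results of these data known. Named were the 14 largest changes each way among genes past the threshold whose higher group averaged 5 FPKM or more and did not overlap the other, passing over clone-named genes, and in each of 43 lists the members picked as its landmarks, up to 6 others by adjusted p, and called members that moved against the majority. Alternatives changed the pseudocount, filter, scaling, trend, samples fitted, replicate block, test and libraries included. A few members that the rule names are not reported here.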

Additional observations from a re-analysis of the deposited data

Results flagged for a closer look

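Egr1, the immediate early factor, was picked out because the test of the difference between the drug effect in irradiated and in unirradiated cells passed for it. The log2 fold change was -1.34 in irradiated and -2.55 in unirradiated cells, a difference of 1.207 (SE 0.135, limma adjusted p = 0.0242). Among the 6 irradiated libraries, Egr1 reached 1 FPKM only in radiation cells, so the separation of its groups follows from the filter. The adjusted p missed the threshold in 13 of 23 other settings.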

How the results depend on the processing

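The 28 genes with the largest changes kept their direction and call in all 697 tests over 25 other settings. They were chosen from the same libraries as the largest called changes with separate groups, so their choice largely set this outcome. Of 273 called list genes, 231 never lost the call, and 216 of 6799 tests lost it, with 0 reversed. The count of 4490 called genes lay within 1.5 times in each setting, between 3586 and 4787 with single libraries left out and 4694 in voom on the recovered fragments. A common FPKM sum moved the median of all genes by -0.042 and gave 1851 higher and 2311 lower. The count of 339 genes changed at least 2-fold was 530 with a pseudocount of 0.1 and 560 in voom, and 311 to 364 with single libraries left out. The 1 gene whose effect differed between irradiated and unirradiated cells became 0 with a minimum FPKM of 5 or a pseudocount of 0.1, 3 with a common sum, 6 with no filter, 4 over protein-coding genes, 2 in voom, 6 after the length correction chosen after seeing the data, and 0 to 5 with single libraries left out; the cause was not tested.

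Same-numbered combination and radiation libraries did not deviate together (correlations of deviations -0.188, -0.134 and 0.039), so the numbers were not taken as pairs. With a replicate block, 4086 genes were called, 4030 of them shared, and 0 genes differed between irradiated and unirradiated cells. Genes near 1 FPKM rest on few fragments, so that their values are the least precise.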

Other observations

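Host genes of small nucleolar RNAs, chosen after their values were seen, were lower in combination cells in 8 of 13 tested members and higher in 1, in limma at an adjusted p of 0.05. The introns of their primary transcripts hold the nucleolar guide RNAs, which splicing frees. Zfas1 (log2 fold change -1.75), Snhg1 (-1.56), Snhg15 (-1.09), Snhg17 (-0.94), Gas5 (-0.93) and Snhg8 (-0.49) fell beside Snhg12 and Snhg5, and Snhg18 rose by 0.997. The groups of 3 libraries overlapped for Snhg8. Snhg6 (-0.47), Snhg4 (-0.21), Snhg10 (-0.39) and Snhg20 (0.09) did not pass.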
